A study of Homo sapiens with 6 samples.

Results

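The 7 genes described here encode readers and erasers of N6-methyladenosine (m6A), the methyl mark on adenosines inside mRNA. They are the YTH family readers *YTHDF1*, *YTHDF2*, *YTHDF3*, *YTHDC1* and *YTHDC2* and the demethylases *FTO* and *ALKBH5*, taken by gene symbol. These genes, and the gene lists set beside them below, were chosen with earlier results of these data known. Each of the 7 symbols matched 1 entry among the 60480 gene identifiers of the deposited count table. PolyA RNA was sequenced from the OE-19 line, which derives from an adenocarcinoma of the esophagogastric junction (AEG). The 3 control libraries are titled shControl and described as Puro, and the labels do not say what Puro stands for. The 3 IGF2BP3 KD libraries come from cells in which *IGF2BP3*, another m6A reader, was knocked down by shRNA (shIGF2BP3). Both groups share the same line, medium and library kit. The labels do not say whether replicates are separate cultures or which hairpin each library carries, so p-values measure the spread between these libraries, which may be technical.

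m6A is written onto nascent mRNA by a complex built around METTL3 and METTL14. Proteins with a YTH domain hold the methylated base in an aromatic pocket. The YTHDF proteins work in the cytoplasm, where YTHDF2 is known for bringing the CCR4-NOT deadenylase to marked mRNAs, and YTHDF1 and YTHDF3 have been tied to both translation and decay. YTHDC1 acts in the nucleus on splicing and export, and YTHDC2 is an RNA helicase best known from meiosis. FTO and ALKBH5 belong to the AlkB family of iron-dependent dioxygenases, which remove the methyl group. IGF2BP3 binds m6A without a YTH domain and is known for stabilizing its targets.

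The libraries held 53453621 to 70026203 counts in total, and IGF2BP3 KD replicate 1 was the shallowest. *IGF2BP3* itself went from 108 ± 2.92 to 13.3 ± 0.996 CPM (SD, n = 3), the count relative to the library's total after scaling with edgeR's TMM factors. Marker sums, in contrast, used library totals only, without the TMM factors, which ran from 0.992 to 1.01. The epithelial markers were the 6 genes *EPCAM*, *CDH1*, *KRT8*, *KRT18*, *KRT19* and *CLDN4*. Without TMM scaling they summed to 5962 to 6060 CPM in control and 5977 to 6123 CPM in IGF2BP3 KD libraries. Differences between these epithelial sums are as small as the factors left out, so no direction is read from them. Of 7 markers of leukocytes, fibroblasts and endothelium, 6 stayed under 1 CPM in every library. The exception was *COL1A1*, which was higher in IGF2BP3 KD cells (log2 fold change 0.50, adjusted p = 7.8e-04 from the same test). With *COL1A1* the 7 summed to 21.3 to 24.0 CPM in control and 29.8 to 34.8 CPM in IGF2BP3 KD libraries, again without TMM scaling. The part of these marker differences in the results was not tested.

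Of the 7 genes, *YTHDF2*, *YTHDC1* and *YTHDF3* were lower in IGF2BP3 KD cells, by 7.69% to 13.7%, and none was called higher. The other 4, *YTHDF1*, *YTHDC2*, *FTO* and *ALKBH5*, did not pass the test. A gene was called at an adjusted p under 0.05 (edgeR's quasi-likelihood test, Benjamini-Hochberg adjustment across 19778 genes), a threshold that 20.4% of those genes passed in either direction. All 7 genes passed the low-count filter, and all lie in the upper part of the tested genes by level, at the 58.9th to the 92.9th percentile of mean CPM. Among all tested genes 10.6% were called lower and 9.87% higher, and among the 9889 genes above the median level these shares were 19.3% and 16.6%, or 35.9% in either direction. Beside this last share, 3 called genes of 7 is near the background and is not a result about these genes as a group. No gene of the 7 rose at an unadjusted p under 0.05 either, and DESeq2 and limma-voom also called 0 of them higher. The median log2 fold change of the 7 genes was -0.08, against 0.01 over all tested genes. The CPM values of the groups did not overlap in 5 of the 7 genes, 4 lower and *FTO* higher, against 35.8% of all tested genes (17.8% lower, 18.0% higher) and 52.7% of those above the median level. In such bulk libraries, fewer cells that express a gene and less of its RNA per cell cannot be told apart.

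**Figure D1:**
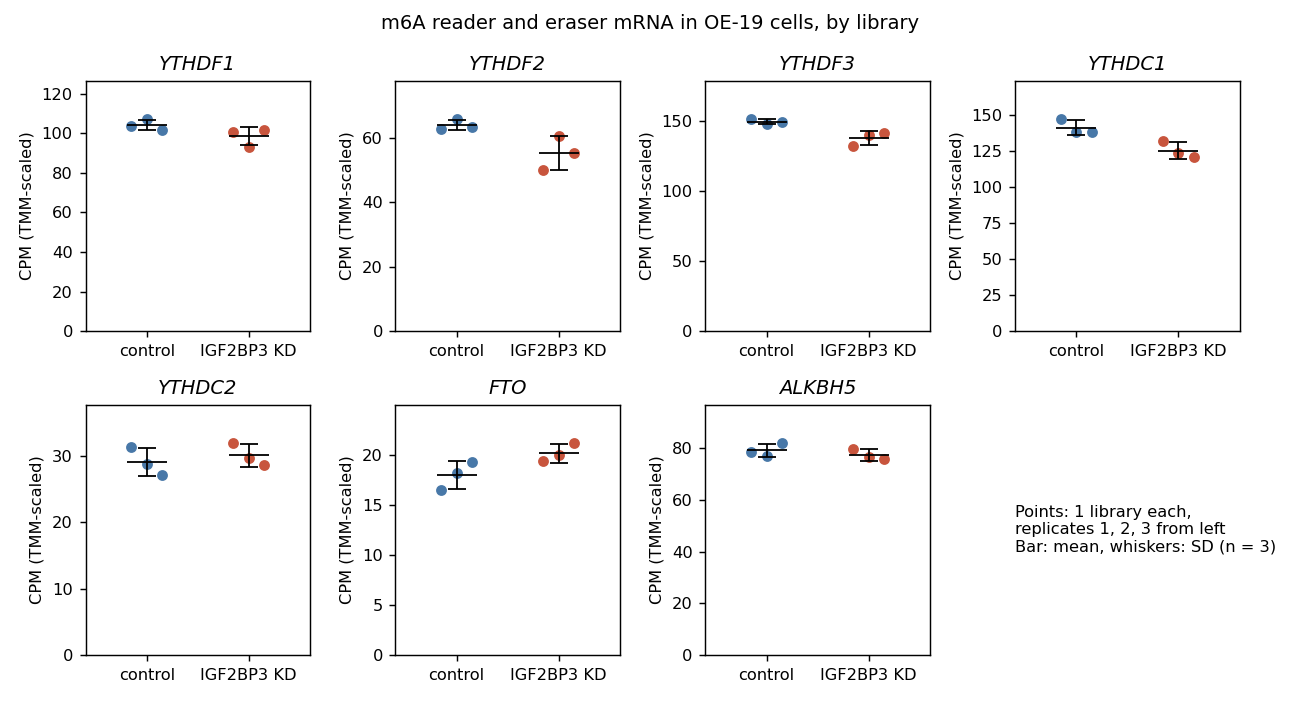
TMM-scaled CPM of the 7 m6A reader and eraser genes in each of the 3 control and 3 IGF2BP3 KD libraries, on axes that start at 0. Points are libraries, bars are means and whiskers are SD (n = 3); the groups do not overlap for *YTHDF1*, *YTHDF2*, *YTHDF3*, *YTHDC1* and *FTO*, and overlap for *YTHDC2* and *ALKBH5*.

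Among the cytoplasmic readers, *YTHDF2* (ENSG00000198492) had the largest fall of all 7 genes in the fit of all 6 libraries. Its locus is the plus strand of chromosome 1 between 28736621 and 28769775 (hg38, as for all genes here). The control replicates 1, 2 and 3 held 4305, 4582 and 3712 of its reads, and the IGF2BP3 KD replicates held 2696, 3755 and 3486. Scaled for depth, these are 62.9, 65.8 and 63.4 CPM in control and 49.95, 60.5 and 55.3 CPM in IGF2BP3 KD libraries. The control libraries lie close together, with a coefficient of variation of 2.43%, while the IGF2BP3 KD libraries spread by 9.53%, and replicate 1 is the lowest. The groups do not overlap, but the highest IGF2BP3 KD library comes close to the lowest control library. The log2 fold change was -0.21 (standard error 0.07, 95% interval -0.36 to -0.07, adjusted p = 0.041 by the quasi-likelihood test of edgeR). Without IGF2BP3 KD replicate 1 the value was -0.15 (adjusted p = 0.13 from the same test), and without replicate 2 it was -0.28. In the fit without replicate 1, *YTHDC1* had -0.21, a larger fall than that of *YTHDF2*.

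*YTHDF3* (ENSG00000185728) is the most abundant of the 7 genes by CPM. It occupies 63168553 to 63212786 on the plus strand of chromosome 8, and had between 7128 and 10343 counts per library. The control libraries stood at 151, 148 and 149 CPM, and the IGF2BP3 KD libraries at 132, 140 and 141 CPM, in replicate order. The 3 control libraries are tightly grouped, with a coefficient of variation of 1.17%, and every IGF2BP3 KD library lies below them. This corresponds to a log2 fold change of -0.12 (standard error 0.04, 95% interval -0.19 to -0.04, adjusted p = 0.041 from the same test), a fall of 7.69% in level.

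*YTHDF1* (ENSG00000149658, minus strand of chromosome 20, 63195429 to 63216139) had 5420 to 7458 counts per library. Control libraries stood at 104, 107 and 102 CPM, and IGF2BP3 KD libraries at 100.4, 93.3 and 101 CPM. The lowest control library and the highest IGF2BP3 KD library are 101.8 and 101.5 CPM, so the groups are almost in contact. Its log2 fold change of -0.08 did not pass the test (95% interval -0.18 to 0.01, adjusted p = 0.22 from the same test). This interval holds levels from 0.884 to 1.01 times those in control cells. For 1 gene taken alone, permuting the 6 libraries (exact permutation test, two-sided) has a smallest p of 0.1, which *YTHDF1*, *YTHDF2*, *YTHDF3*, *YTHDC1* and *FTO* each reach.

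*YTHDC1* (ENSG00000083896), the nuclear reader, had the smallest p of the 7 genes. It occupies 68310387 to 68350090 on the minus strand of chromosome 4, with 7099 to 10063 counts per library. The control libraries stood at 147, 138 and 138 CPM, and the IGF2BP3 KD libraries at 132, 124 and 121 CPM. Every IGF2BP3 KD library lies below every control library. This is a log2 fold change of -0.17 (standard error 0.04, 95% interval -0.27 to -0.08, adjusted p = 0.013 by the same edgeR test), a fall of 11.3%. Its 3′ UTR holds the word TGGAC, written UGGAC in RNA, which the study names as the consensus of IGF2BP3 targets, more often than the 3′ UTR of any other YTH gene here, and these 3 matches are shown for that reason with the word in capitals. Matches were searched on the mRNA strand only, in the MANE Select transcript of GENCODE v44 on hg38. The 3′ UTR of *YTHDC1* is also the longest of the YTH genes here, and the matches were not counted per length. *YTHDF1* holds 1 match in 1279 bases. The 3 matches of *YTHDC1* lie at bases 833, 1122 and 3076 of a 3′ UTR of 3712 bases.
YTHDC1, chr4:68313252-68313276, minus strand: tatgcaataaTGGACataaaagcat
YTHDC1, chr4:68312963-68312987, minus strand: acttcataaaTGGACttttaaccct
YTHDC1, chr4:68311009-68311033, minus strand: ccaaaagacaTGGACagaggaaatt

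A 3′ UTR with TGGAC is common, since 61.4% of 13939 tested coding genes have one. *FTO* holds 5 matches, *YTHDF1* holds 1, and *YTHDF2*, *YTHDF3*, *YTHDC2* and *ALKBH5* hold none. Of the 3 genes that fell, *YTHDC1* thus has the word and *YTHDF2* and *YTHDF3* do not. Such a match is a string of letters and not a measured binding site.

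*YTHDC2* (ENSG00000047188, plus strand of chromosome 5, 113513694 to 113595285), the helicase, had 1592 to 2149 counts. Control libraries measured 31.4, 28.9 and 27.2 CPM, and IGF2BP3 KD libraries 32.0, 29.7 and 28.6 CPM. The groups overlap over most of their range. With a log2 fold change of 0.05 it did not pass the test (95% interval -0.11 to 0.20, adjusted p = 0.73 from the same test). Levels between 0.927 and 1.15 times the control level lie inside this interval.

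*FTO* (ENSG00000140718), the first m6A demethylase described, occupies 53701692 to 54158512 on the plus strand of chromosome 16 and had the fewest counts of the 7 genes, 1044 to 1335 per library. The control libraries stood at 16.5, 18.2 and 19.3 CPM, and the IGF2BP3 KD libraries at 19.3, 19.9 and 21.2 CPM. The highest control library, at 19.26 CPM, lies just under the lowest IGF2BP3 KD library, at 19.34 CPM. The log2 fold change of 0.16 did not pass the test (standard error 0.08, 95% interval -0.0066 to 0.34, adjusted p = 0.18 by the same edgeR test). Levels up to 1.26 times those in control cells are inside the interval. The 3′ UTR of *FTO*, with 10026 bases at the 99.0th percentile of tested coding genes, holds the word ACACATC at base 1307. ACACATC was picked out in an earlier analysis of the same libraries, so its presence here supports nothing by itself. The site is shown with the word in capitals.
FTO, chr16:54113212-54113238, plus strand: gatgccattaACACATCtctccctttc

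*ALKBH5* (ENSG00000091542, plus strand of chromosome 17, 18183078 to 18209954), the mostly nuclear demethylase, had 4310 to 5375 counts. Control libraries measured 78.5, 77.1 and 82.1 CPM, and IGF2BP3 KD libraries 79.9, 76.7 and 75.8 CPM. The groups overlap. The log2 fold change was -0.03 (95% interval -0.13 to 0.06, adjusted p = 0.68 from the same test), which bounds its level to between 0.915 and 1.04 times the control level. Neither demethylase gene thus passed the test.

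**Figure D2:**
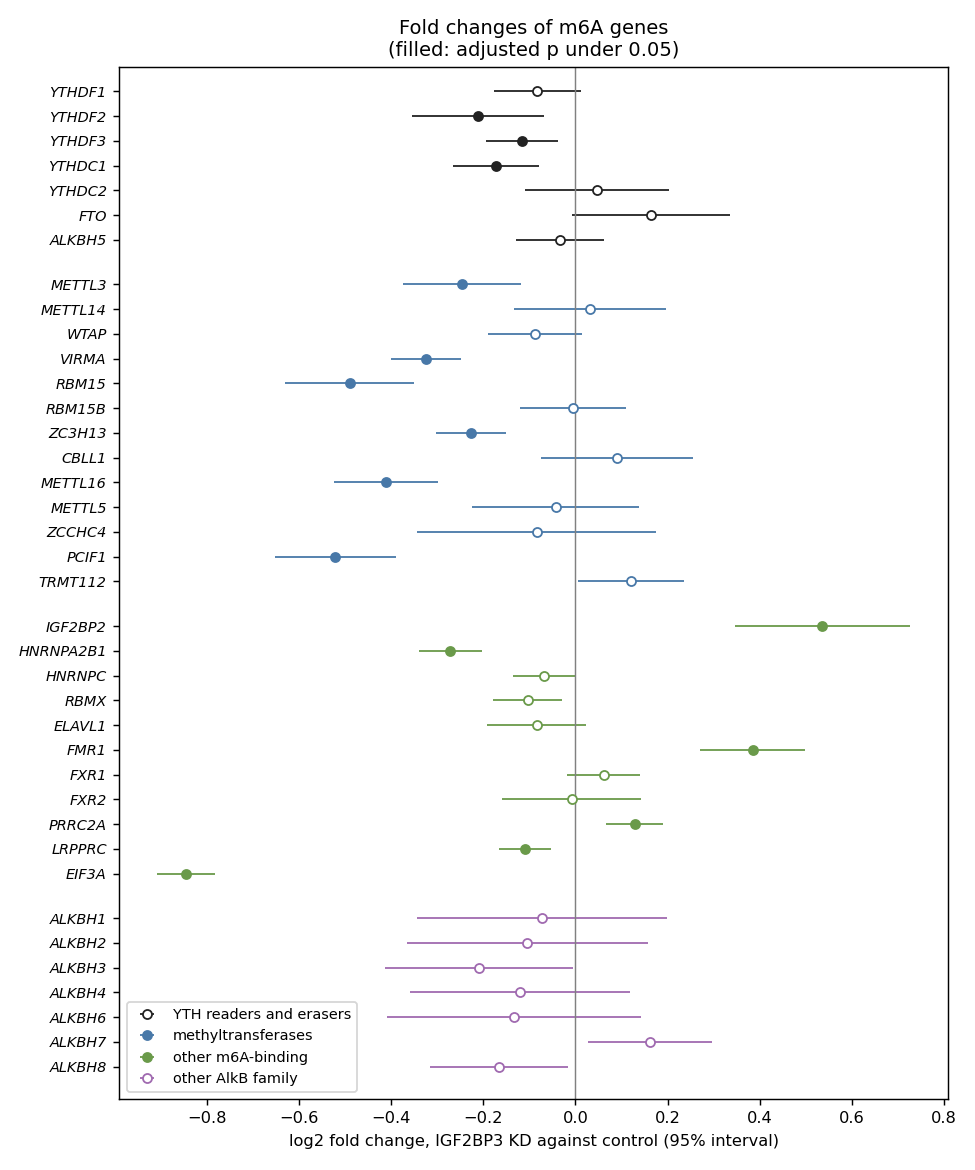
Log2 fold changes between IGF2BP3 KD and control cells with 95% intervals for the YTH readers and erasers, the methyltransferase list, other reported m6A-binding proteins and the other AlkB genes, with filled points for an adjusted p under 0.05 from edgeR. *IGF2BP1* and *IGF2BP3* are left out for scale; the 7 reader and eraser genes all lie between -0.21 and 0.16, and *EIF3A* at -0.85 and *IGF2BP2* at 0.54 are the outermost points.

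The 3 calls differ in how much they rest on single libraries. With each library left out in turn, *YTHDC1* was called lower in 4 of 6 fits, and lost the call without IGF2BP3 KD replicate 2 (adjusted p = 0.060) or replicate 3 (adjusted p = 0.062, both by the edgeR test). *YTHDF2* was called in 1 of the 6 fits, the one without IGF2BP3 KD replicate 2, and *YTHDF3* in 1, the one without IGF2BP3 KD replicate 3. Hence 1 of the 7 genes was called lower in each of the 6 fits with 5 libraries. In all 6 fits the log2 fold changes of *YTHDF2*, *YTHDF3* and *YTHDC1* remained negative, between -0.28 and -0.09. The calls of *YTHDF2* and *YTHDF3* were also lost without TMM scaling (adjusted p = 0.055 and 0.067), without a low-count filter (adjusted p = 0.081 and 0.080) and with a trend on GC content removed (adjusted p = 0.05002 and 0.061), for *YTHDF2* and *YTHDF3* in this order and from the same test. With the GC trend removed and the replicate number as a block, edgeR called both genes (adjusted p = 0.018 for *YTHDF2* and 0.029 for *YTHDF3*). DESeq2 called *YTHDF2*, *YTHDF3* and *YTHDC1* lower, with adjusted p of 0.0057, 0.0096 and 3.7e-04 in this order.

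**Figure D3:**
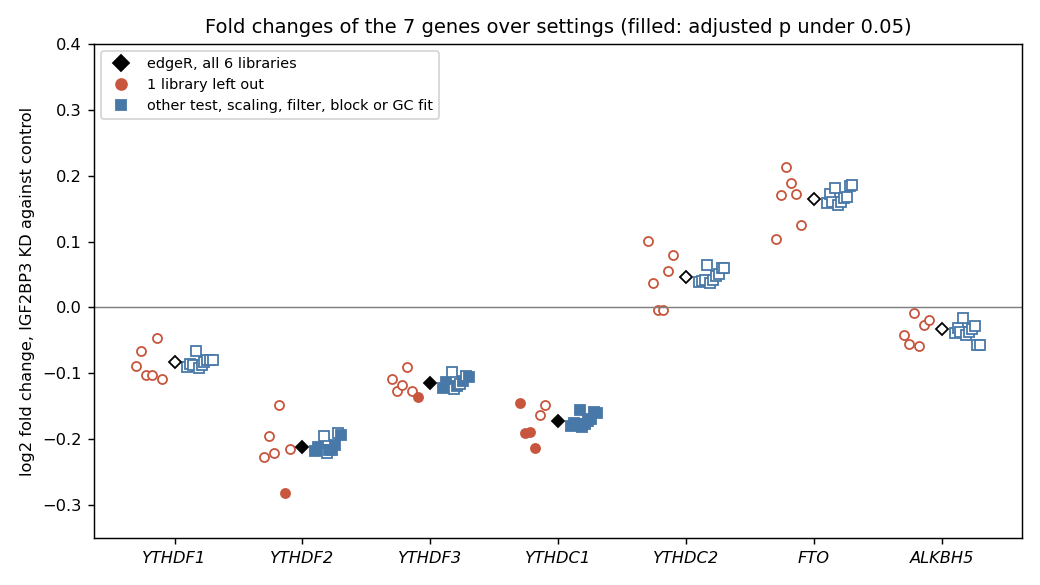
Log2 fold changes of the 7 genes in the fit of all 6 libraries (diamonds), with 1 library left out (circles) and under another test, scaling, filter, block or GC fit (squares), with filled symbols for an adjusted p under 0.05. The points of *YTHDF2*, *YTHDF3* and *YTHDC1* stay below 0 and those of *FTO* stay above 0 while many symbols are open, and *YTHDC2* lies on both sides of 0.

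To compare the genes with each other, counts were divided by the length of the union of a gene's exons and scaled to a common total over all genes (TPM). In control cells the order of the levels was *YTHDF1* with 105 ± 3.22 TPM, *YTHDF3* with 78.6 ± 0.285 TPM, *ALKBH5* with 71.4 ± 2.39 TPM, *YTHDC1* with 65.1 ± 1.79 TPM and *YTHDF2* with 55.7 ± 1.78 TPM (SD, n = 3). *YTHDC2* with 8.75 ± 0.578 TPM and *FTO* with 2.73 ± 0.229 TPM followed at a distance. Neighbours in this order did not overlap between the 3 control libraries. The order depends on the length used. With the MANE Select transcript, *YTHDF2* and *YTHDC1* change places and their control ranges overlap. With the coding length, *YTHDF3* stands first with 96.4 TPM, *YTHDF1* stands at rank 4 with 70.4 TPM, the ranges of *ALKBH5*, *YTHDC1* and *YTHDF1* overlap in sequence, and *FTO* with 13.5 TPM passes *YTHDC2* with 7.71 TPM. *FTO* and *YTHDC2* were the 2 lowest genes with each of the 3 lengths.

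The shares of the 3 YTHDF paralogs overlapped between the groups. *YTHDF1* made up 43.99% ± 0.515 of the summed YTHDF level per length in control and 45.2% ± 2.31 in IGF2BP3 KD cells (SD, n = 3). *YTHDF2* made up 23.2% ± 0.334 and 21.8% ± 1.84, and *YTHDF3* 32.8% ± 0.743 and 32.9% ± 0.502. The share of *YTHDF2* was lowest in IGF2BP3 KD replicate 1, at 20.3%, and highest in IGF2BP3 KD replicate 2, at 23.8%, so the knockdown libraries span the control range of 22.9% to 23.5%. The summed YTHDF level was 237, 245 and 237 TPM in control and 219, 222 and 226 TPM in IGF2BP3 KD replicates, with no overlap. The summed level of *FTO* and *ALKBH5* was 72.5 to 77.1 TPM in control and 71.6 to 76.4 TPM in IGF2BP3 KD libraries, which overlap. These sums and shares are given as a description, without a test.

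Set beside the IGF2BP readers, the YTHDF genes formed most of this reader mRNA in either group. Of the summed YTHDF and IGF2BP level per length, the 3 YTHDF genes held 83.1% ± 0.499 in control and 93.2% ± 0.373 in IGF2BP3 KD cells (SD, n = 3). *IGF2BP3* held 14.3% ± 0.499 in control and 2.14% ± 0.203 in IGF2BP3 KD cells, the change the knockdown itself makes. By coding length its shares were 24.6% and 4.09%. *IGF2BP2* held 2.59% ± 0.247 and 4.60% ± 0.198, and *IGF2BP1* had 2 to 27 counts in any library. Because these are shares of 1 sum, those of the other genes rise when that of *IGF2BP3* falls. By mean level, the 3 YTHDF genes together had 240 TPM in control and 222 TPM in IGF2BP3 KD cells. *IGF2BP2* had 7.48 and 10.9 TPM.

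**Figure D4:**
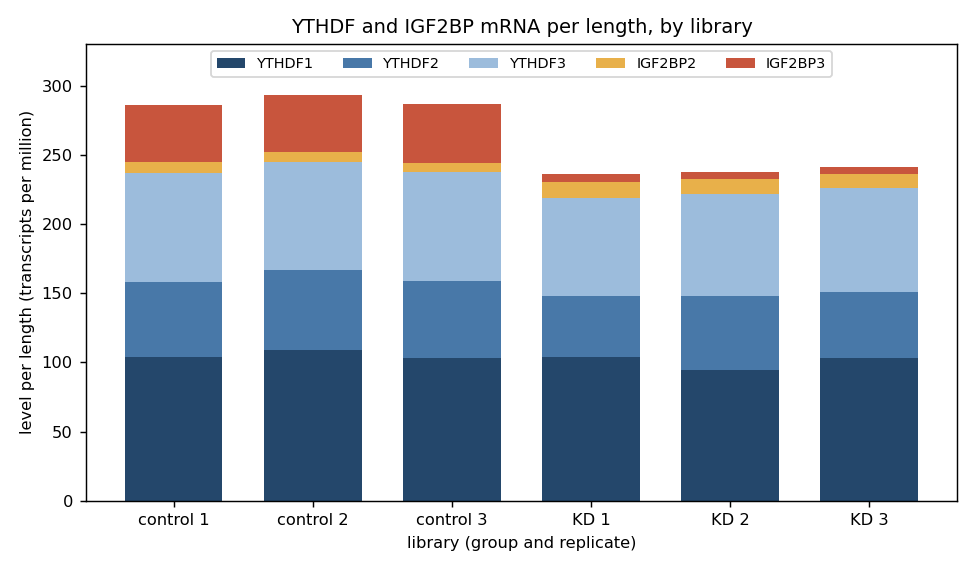
Level per length in TPM, by the union of exons, of the 3 YTHDF genes and of *IGF2BP2* and *IGF2BP3*, stacked for each of the 3 control and 3 IGF2BP3 KD libraries. The *IGF2BP3* segment shrinks from 41.2 to 5.08 TPM on average, while the 3 YTHDF segments together go from 240 to 222 TPM.

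The 7 mRNAs differ widely in their untranslated ends. The 3′ UTR has 823 bases in *YTHDF2*, 1279 in *YTHDF1*, 1558 in *ALKBH5*, 1810 in *YTHDC2*, 3080 in *YTHDF3*, 3712 in *YTHDC1* and 10026 in *FTO*, against a median of 1259 over 13939 tested coding genes. The DRACH consensus of m6A, in which D is A, G or T, R is A or G, and H is A, C or T, occurs 23.1 times per kilobase in the 3′ UTR of *YTHDF2* and 10.3 times in that of *ALKBH5*, the extremes of the 7 genes. The median of the coding genes is 18.4, with quartiles of 15.4 and 21.3. No member has GATTACT in its 3′ UTR, a word likewise picked out in the earlier analysis, which 7.69% of the tested coding genes hold. ACACATC is in *FTO*, which did not pass the test, and in *YTHDF3*, which was lower, and in 9.53% of the tested coding genes. *YTHDF1*, *YTHDF3*, *YTHDC1* and *YTHDC2* share no exonic base with another gene of GENCODE v44. *YTHDF2* shares 920 exonic bases and *ALKBH5* 357 with a lncRNA on the opposite strand, and *FTO* shares 180 with a pseudogene on the opposite strand. In the deposited table the partner of *ALKBH5* had 0 to 5 counts per library, that of *FTO* had 0, and the identifier of the partner of *YTHDF2* is not listed.

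As a description of pattern, the genes most like each lower gene were found by Pearson's r of log2 CPM over the 6 libraries among 13413 genes with at least 1 CPM. They were *UBE2R2* and *SAMD4A* for *YTHDF2* (r = 0.994 and 0.992), *TBL1X* and *BTG2* for *YTHDF3* (r = 0.999 and 0.995), and *KLHDC10* for *YTHDC1* (r = 0.994). Libraries of both groups enter each r. With 6 libraries, the highest r among so many genes is large by selection. Of these genes *TBL1X* and *BTG2* were called lower, at log2 fold changes of -0.24 and -0.49, and *UBE2R2*, *SAMD4A* and *KLHDC10* were not called.

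Of 13 listed RNA adenosine methyltransferases and cofactors, 6 were lower and 0 higher (edgeR's quasi-likelihood test), beside 10.6% and 9.87% of all tested genes and 19.3% and 16.6% of those above the median level. Their median log2 fold change was -0.09, against 0.01 over all tested genes. At an unadjusted p under 0.05, 1 was higher, and DESeq2 and limma-voom called 0 and 0 higher. *PCIF1*, which methylates the adenosine next to the cap, measured 43.6 ± 2.21 CPM in control and 30.4 ± 1.14 CPM in IGF2BP3 KD cells, with a log2 fold change of -0.52. *RBM15*, an adaptor that brings the complex to RNA, had -0.49, *METTL16*, which methylates U6 snRNA, had -0.41, and *VIRMA*, the scaffold, had -0.32. The other two called genes were *METTL3*, the catalytic subunit, with -0.25 (adjusted p = 0.011 from edgeR), and *ZC3H13*, a cofactor, both chosen after seeing their values. The differences between these values and those of the readers were not tested.

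Among 12 other reported m6A-binding proteins besides *IGF2BP3*, 3 were lower and 3 higher, beside 20.4% of all tested genes and 35.9% of those above the median level called in either direction. *EIF3A*, a subunit of the translation initiation factor eIF3, fell from 454 ± 12.3 to 253 ± 3.42 CPM (log2 fold change -0.85), and *HNRNPA2B1* and *LRPPRC* had -0.27 and -0.11. *IGF2BP2*, the nearest relative of *IGF2BP3* with measurable mRNA, rose from 12.3 ± 1.19 to 17.8 ± 0.434 CPM (log2 fold change 0.54), and *FMR1* and *PRRC2A* had 0.38 and 0.13. The groups did not overlap for any of these 6 genes, as for 35.8% of all tested genes and 52.7% of those above the median level. Of the 7 other AlkB genes 0 were called by edgeR, 2 were lower and 1 higher at an unadjusted p under 0.05, and DESeq2 called 0 lower and 0 higher, while limma-voom also called 0 and 0.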

How the data were processed

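PolyA RNA of 6 OE-19 libraries, 3 control and 3 IGF2BP3 KD, was sequenced, and grouped by the labels. The authors deposited raw counts per gene, and their processing notes name fastp, HISAT2, featureCounts and the hg38 build. Versions, annotation release and strand setting of the counting are not given in the sources used here. The library kit is directional.

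Of 60612 rows, 132 that repeat 44 identifiers were left out. The test was glmQLFTest of edgeR 4.0.16 (R 4.3.3; TMM, filterByExpr with min.count 10 and min.total.count 15), with Benjamini-Hochberg adjustment over 19778 genes. The standard error is the absolute log2 fold change divided by the root of F. Levels per length used the union of exons, and 3′ UTRs the MANE Select transcript, of GENCODE v44, which holds 99.97% of the identifiers. The design named the transcript with the longest coding part, so this differs from it. Words were sought on the mRNA strand. Alternatives were DESeq2 1.42.0, limma-voom (limma 3.58.1), other scalings, filters and thresholds, a replicate block, coding genes only, removal of a GC trend, each library left out, and other lengths. Of the steps, only the edgeR fit was tested on simulated counts.

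The genes, lists and words were chosen with earlier results of these data known. Named are the 7 genes, *IGF2BP3*, from each list at most 4 called genes per direction by smallest p (*METTL3* and *ZC3H13* were added after their values were seen), and the 2 genes most like each called gene, of which 1 is not reported here. Libraries held 53453621 to 70026203 counts, and replicates of a group differed by more than counting error (chi-square per degree of freedom 9.86 to 17.6).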

Additional observations from a re-analysis of the deposited data

How the results depend on the processing

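Signs and calls of the 7 genes were recomputed under 18 alternatives. The negative sign of *YTHDF1*, *YTHDF2*, *YTHDF3*, *YTHDC1* and *ALKBH5* and the positive sign of *FTO* held in all 18. *YTHDC1* was called in 15 of the 18, *YTHDF2* in 9, *YTHDF3* in 8 and the other 4 genes in none. The log2 fold change of *YTHDF2* was -0.19 with library totals only, -0.22 without a low-count filter and -0.19 with the GC trend removed, and that of *YTHDF3* was -0.098, -0.12 and -0.10, none of them called, so that 1 of the 7 genes was called lower under each of these settings. At a threshold of 0.01 the values of *YTHDF2*, *YTHDF3* and *YTHDC1*, -0.21, -0.12 and -0.17, were not called, which leaves 0 genes. With 1 library left out, the log2 fold change ranged from -0.28 to -0.15 for *YTHDF2*, from -0.14 to -0.090 for *YTHDF3*, from -0.21 to -0.14 for *YTHDC1* and from -0.0041 to 0.10 for *YTHDC2*, and 1 gene was called lower each time. *YTHDC2* changed sign without control replicate 3 (-0.0041) and without IGF2BP3 KD replicate 1 (-0.0037). The cause of these changes was not tested.

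With the replicate number as a block, *YTHDF3* had -0.12 (adjusted p = 0.051, edgeR) and was not called, *YTHDF2* and *YTHDC1* were, and 2026 genes were lower and 1875 higher over all genes, against 2088 and 1953 without it. Deviations of same-numbered libraries correlated at -0.029, -0.092 and -0.077 over 14289 genes, so no shared deviation by number was seen. These values cannot exclude that same-numbered libraries were made together, which the labels do not state.

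By the length of 1 transcript, the YTHDF shares of *YTHDF1*, *YTHDF2* and *YTHDF3* were 38.2%, 27.4% and 34.4% in control and 39.5%, 25.8% and 34.7% in IGF2BP3 KD cells. By coding length they were 33.8%, 20.0% and 46.2%, and 34.7%, 18.8% and 46.5%. The *IGF2BP3* share of YTHDF and IGF2BP levels was 22.4% and 3.64% by 1 transcript and 24.6% and 4.09% by coding length. By 1 transcript *YTHDF2* took rank 4 and *YTHDC1* rank 5, and by coding length *YTHDF3* took rank 1, *ALKBH5* 2, *YTHDC1* 3, *YTHDF1* 4, *FTO* 6 and *YTHDC2* 7. Of the AlkB genes 1 was higher at a threshold of 0.1. Of the decay partners 3 were lower at 0.01, and 3 to 6 with 1 library left out, and of the YTHDC1 partners 0 to 1 were then higher. Over all genes, 1314 were lower and 1098 higher at 0.01.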

Other observations

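Among partners reported for YTH proteins in mRNA decay, 5 of 16 genes were lower and 3 higher (edgeR's quasi-likelihood test), with a median log2 fold change of -0.08 against 0.01 over all tested genes. Of all tested genes 20.4% were called in either direction, and 35.9% of those above the median level. *CNOT6*, a deadenylase subunit of CCR4-NOT, rose from a mean of 40.0 CPM in control to 71.0 CPM in IGF2BP3 KD cells (log2 fold change 0.83), its paralog *CNOT6L* had 0.16, and *CNOT7*, another deadenylase of the complex, had 0.21. *CNOT1*, the scaffold of the complex that YTHDF2 binds, had -0.12, *CNOT2* -0.24, *UPF1*, the helicase of nonsense-mediated decay, -0.19, and *POP1*, a subunit of RNase P and RNase MRP, -0.30. Of 8 reported partners of YTHDC1 in splicing and export, 6 were lower and 0 higher, beside 10.6% and 9.87% of all tested genes and 19.3% and 16.6% of those above the median level, with none higher at an unadjusted p under 0.05 or by DESeq2 or limma-voom. The splicing factors *SRSF7*, *SRSF3* and *SRSF10* had -0.24, -0.18 and -0.15, and *SAFB*, a scaffold attachment factor, had -0.22.

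Over the 64 genes of all lists, 6 hold GATTACT in the 3′ UTR, of which 4 were lower, 0 higher and 2 not called. ACACATC is in 6, of which 1 was lower, 3 higher and 2 not called. Among tested coding genes 7.69% hold GATTACT and 9.53% hold ACACATC. Of all tested genes 10.6% were lower and 9.87% higher, and of those above the median level 19.3% and 16.6%. The words come from an earlier analysis of these libraries, so the counts of called holders are no independent support. Among the holders, *FXR1* (GATTACT), *ALKBH8* (both words) and *FTO* (ACACATC) were not called, and *YTHDF3*, which was lower, holds ACACATC. Shown with the word in capitals, on hg38, are only the sites of *EIF3A* and *METTL16*, which were lower, and of *CNOT6* and *FMR1*, which were higher.
EIF3A, chr10:119035402-119035428, minus strand: gtaatgacaaGATTACTgcgcaagtgt
METTL16, chr17:2416456-2416482, minus strand: gcttcgtgtaGATTACTttagtatata
CNOT6, chr5:180576052-180576078, plus strand: ctgacaccaaACACATCcagtttataa
FMR1, chrX:147950422-147950448, plus strand: ggtaccttgcACACATCatctgtaagc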
